A study of Mus musculus with 4 samples.

Results

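The collagen gene family was examined in RNA from colonies of mouse mammary basal epithelial cells grown with or without purified Wnt3A, a secreted ligand of the canonical Wnt pathway. Members were all genes whose single symbol in the array's annotation had the collagen form (Col, a type number, the letter a and a chain number), and each gene's value was the mean of its probe sets. This gave 42 genes, measured by 82 probe sets, of 18193 genes with a single symbol. By type, 11 members encode chains of fibrillar collagens (types 1, 2, 3, 5, 11, 24 and 27), 8 encode basement membrane collagens (types 4, 15 and 18) and 23 encode other types. Col28a1 and Col6a6 had no probe set with their symbol and were not analysed here.

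The cells were Lin-, CD24+, CD29hi basal cells of virgin CD1 females aged 8 to 12 weeks, a sorted fraction in which mammary stem cells are enriched. The Wnt3A group was cultured in growth factor reduced Matrigel with 50 ng/ml EGF and 200 ng/ml Wnt3A throughout, and the control group with the same EGF and vehicle, given as 1% CHAPS in PBS in the protocol and spelled "vesicle" in the sample labels. Passage 2 colonies gave the RNA at 6 to 7 days of culture, and each group had 2 single-colour arrays (Wnt3A 1, Wnt3A 2, control 1, control 2). Whether a group's arrays hold RNA of different animals, pools or cultures is not in the labels, so the spread that the p-values rest on may be technical. Each value is on a log2 scale with the probe set's median of the 4 arrays set to 0, so it carries no absolute level.

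Collagens are trimeric matrix proteins whose chains wind around each other in repeats that begin with glycine. Fibrillar collagens form the cables of stroma, cartilage and bone, type 4 collagen forms the sheet-like network under every epithelium, and fibril-associated, beaded and anchoring collagens connect them. In the mammary gland the basal cells rest on the basement membrane and make part of it, whereas stromal fibroblasts make most of the fibrillar collagen. Matrigel is itself a basement membrane extract that contains type 4 collagen protein, while the arrays read RNA.

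A rough level could be read from the precision with which values were stored, as log2 8 to 16, 4 to 8 or below 4. By it, 19 collagen genes had a probe set in the highest range, 20 reached the middle one and 3 (Col24a1, Col26a1 and Col6a5) lay below log2 4. Of all 18193 genes, 9075 reached the highest range, and the reading can place probe sets too high or too low. Of the markers of the labelled basal cells, 10 of 12, Krt5, Krt14 and Trp63 among them, reached the highest range. Of the markers of other cells, 2 of 13 for fibroblasts, 1 of 10 for endothelium, 2 of 9 for leukocytes, 1 of 7 for adipocytes, 3 of 7 for pericytes and Schwann cells, and 8 of 11 for luminal epithelium reached it. Of the fibroblast markers, Pdgfra lay between log2 4 and 8, and the 3 below 4, named for that range, were Lum, Dpt and Tcf21. Summed marker levels could not be formed from centred values. The Wnt feedback gene Axin2, a check of the treatment, was at 0.60 and 0.19 with Wnt3A, against -0.27 and -0.59 in control. Its difference of 0.82 log2 units had a limma adjusted p of 0.548, so it was not a called change.

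The Wnt3A arrays and the control arrays did not overlap for 19 of the 42 collagen genes. With Wnt3A, 11 lay higher and 8 lower than in control. Over all genes 34.6% did not overlap, 17.0% higher and 17.5% lower. No gene passed limma after Benjamini-Hochberg adjustment: 0 of 18193 genes (0.0%) had an adjusted p under 0.05 and the smallest was 0.266, so the values below are measured differences and not called changes. At an unadjusted p under 0.05 limma gave 10 collagen genes, 4 higher and 6 lower with Wnt3A, or 23.8% of members beside 7.37% of all genes (3.55% higher and 3.82% lower). Differences of at least 0.5 log2 units in either direction were seen in 14 members (33.3%), against 7.46% of all genes. The median difference was 0.02 log2 units for the family and 0.00 for all genes, with 26 members above 0 and 16 below. Over all genes, 9110 lay above 0 and 9082 below.

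**Figure D1:**
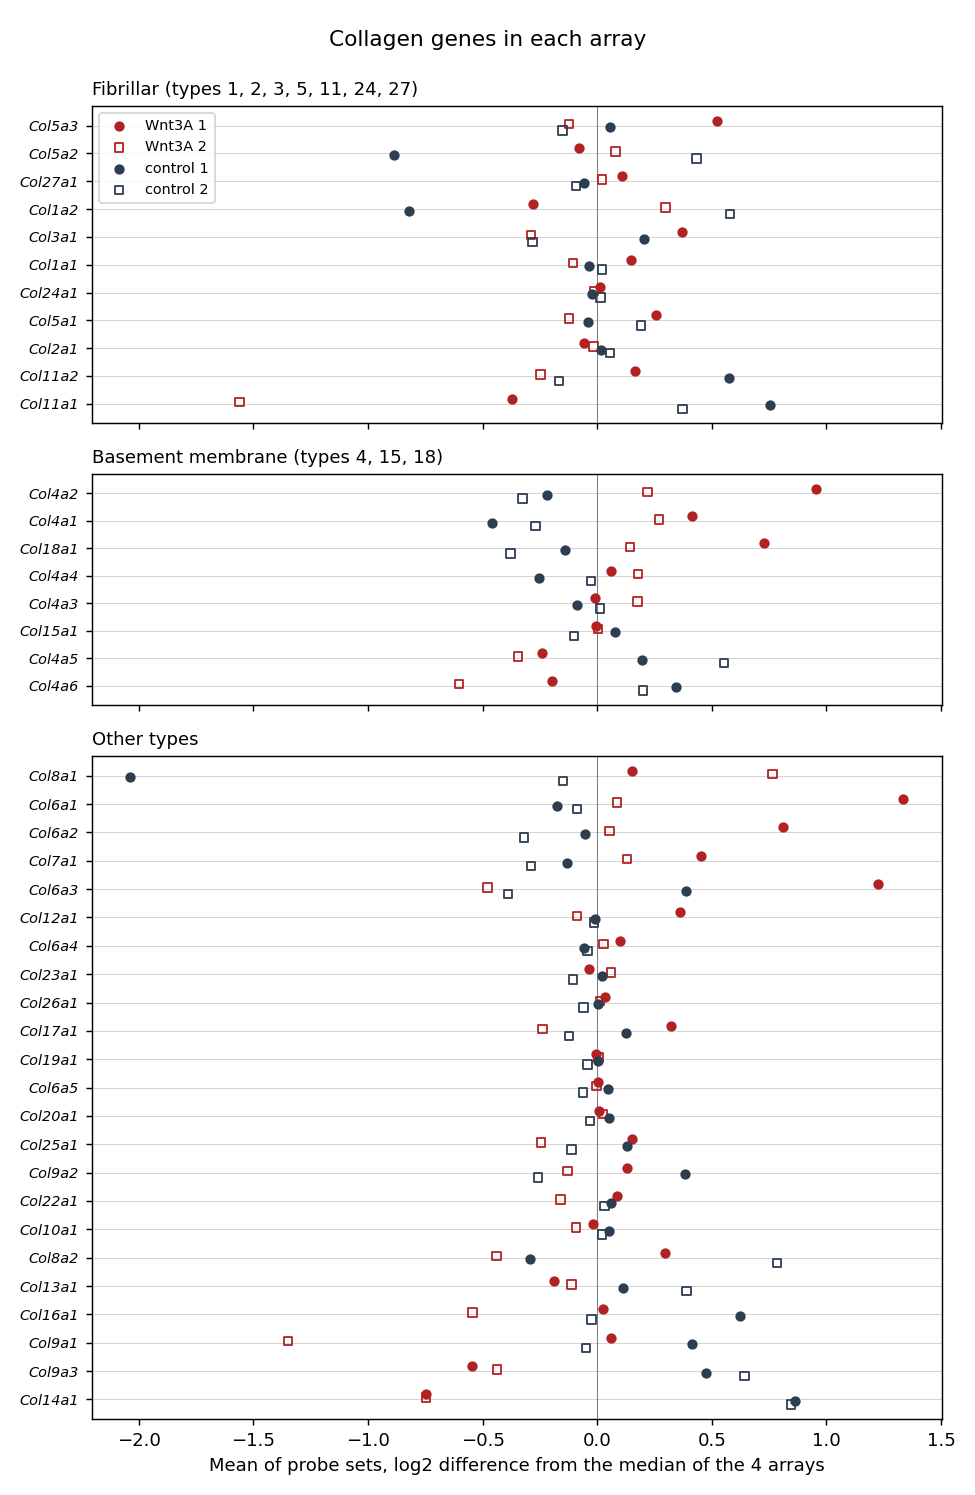
Value of each of the 42 collagen genes in each array, as the mean of its probe sets on a log2 scale relative to the median of the 4 arrays, in 3 panels by collagen type; red marks are Wnt3A arrays, dark marks are control arrays, circles are arrays numbered 1 and squares arrays numbered 2. Red and dark marks stand apart on opposite sides for Col14a1, Col9a3, Col4a1, Col4a2, Col4a5 and Col4a6, and are intermixed for Col1a1, Col3a1 and Col17a1.

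The plot of values by array shows the family gene by gene. The basement membrane genes separated most often, in 6 of 8 genes (75.0%). The other types followed, in 10 of 23 (43.5%), then the fibrillar genes, in 3 of 11 (27.3%), against 34.6% of all genes. In that order, the median absolute differences of the 3 groups were 0.67, 0.15 and 0.13 log2 units, against 0.12 over all genes. Whether these 3 groups differ from each other was not tested.

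Type 4 collagen has 6 chain genes that lie in 3 pairs of neighbours, and the pairs differed in direction. Col4a1 and Col4a2 encode the chains of the type 4 collagen found in nearly all basement membranes. Col4a1 was at 0.41 and 0.27 in the Wnt3A arrays, against -0.46 and -0.27 in the control arrays. Its difference was 0.70 ± 0.14 log2 units (SE, 2 arrays each), 1.63-fold, with a limma adjusted p of 0.477. Col4a2 was at 0.96 and 0.22 with Wnt3A, against -0.22 and -0.32 in control, a difference of 0.86 ± 0.27. Both genes were thus above both controls in each Wnt3A array, and the Col4a2 difference was larger in Wnt3A 1, being 1.23 without Wnt3A 2 and 0.49 without Wnt3A 1. The 2 Col4a1 probe sets differed by 0.67 and 0.74.

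Col4a5 and Col4a6 encode chains of a second, more restricted network, and lie next to each other on the X chromosome. Col4a5 was at -0.24 and -0.35 with Wnt3A, against 0.20 and 0.55 in control, a difference of -0.67 ± 0.17. Col4a6 was at -0.20 and -0.60 with Wnt3A, against 0.34 and 0.20 in control, also a difference of -0.67 (± 0.18). The pair's levels with Wnt3A were 62.9% and 62.7% of control, and all 4 of their probe sets, from -0.61 to -0.73, had separated groups. The limma adjusted p was 0.548 for Col4a5 and 0.572 for Col4a6. Within each array, the mean of Col4a1 and Col4a2 minus the mean of Col4a5 and Col4a6 was 0.90 and 0.72 with Wnt3A, against -0.61 and -0.67 in control. This contrast of chain pairs differed by 1.45 log2 units between the groups. The pairs were set against each other after their values were seen, so no test is given.

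Col4a3 and Col4a4, the third pair, encode chains best known from the basement membranes of kidney and lung. Col4a4 was at 0.06 and 0.18 with Wnt3A, against -0.26 and -0.03 in control, a difference of 0.26 ± 0.14. Col4a3 differed by 0.12 ± 0.13, with overlapping groups. Both were in the middle level range or below in every probe set.

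Bases upstream of Col4a5 and Col4a6 are shown because these neighbours, which the promoter table places on opposite strands with starts facing away from each other, had nearly equal negative differences. Those of Col8a1, with the largest positive difference, and of Col6a1 are shown as examples on the other side of 0. They are RefSeq bases of build GRCm38.p6, 5′ to 3′ on the gene's strand, cut to the part outside any annotated gene: Col4a5 at chrX:141475169-141475369 (plus strand), Col4a6 at chrX:141474096-141474326 (minus strand), Col6a1 at chr10:76726045-76726294 (minus strand) and Col8a1 at chr16:57754738-57754987 (minus strand). Capitals mark matches on either strand to CTTTGA, the core bound by TCF/LEF factors of the Wnt pathway, GGGCGG, a GC box that reads CCGCCC on the other strand, and CCAAT.
Col4a5: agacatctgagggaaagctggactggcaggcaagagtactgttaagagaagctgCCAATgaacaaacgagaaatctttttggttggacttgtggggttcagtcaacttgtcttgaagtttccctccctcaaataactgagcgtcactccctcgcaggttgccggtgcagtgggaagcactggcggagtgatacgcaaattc
Col4a6: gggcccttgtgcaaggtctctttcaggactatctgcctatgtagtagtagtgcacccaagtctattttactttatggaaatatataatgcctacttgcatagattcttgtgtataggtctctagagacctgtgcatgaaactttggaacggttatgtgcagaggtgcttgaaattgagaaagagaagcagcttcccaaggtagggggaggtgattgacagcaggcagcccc
Col6a1: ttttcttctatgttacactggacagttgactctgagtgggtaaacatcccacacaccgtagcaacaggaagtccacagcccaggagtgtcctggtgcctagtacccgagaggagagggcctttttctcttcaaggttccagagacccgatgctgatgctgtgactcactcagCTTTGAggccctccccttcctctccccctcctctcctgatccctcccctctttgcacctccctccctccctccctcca
Col8a1: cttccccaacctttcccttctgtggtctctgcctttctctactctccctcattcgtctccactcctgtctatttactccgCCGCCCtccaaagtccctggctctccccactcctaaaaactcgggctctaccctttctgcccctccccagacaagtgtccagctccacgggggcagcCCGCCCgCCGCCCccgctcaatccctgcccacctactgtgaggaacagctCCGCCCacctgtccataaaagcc

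The stretches of Col4a5 and Col4a6 end 49 and 19 bases before the starts in the table. The Col4a5 stretch held 1 CCAAT, the Col4a6 stretch none of the 3 motifs, the Col6a1 stretch 1 CTTTGA and the Col8a1 stretch 4 GC boxes. Stretches of Col7a1 and Col11a1 were cut as well but are not printed, and each held 1 GC box, 1 CCAAT and no CTTTGA. Col6a1 was thus the only gene with CTTTGA among those cut. The promoter windows of the neighbours Col4a1 and Col4a2, both higher with Wnt3A, held no CTTTGA. Promoter windows of 300 bases, 250 before and 50 after the start, were found for 33 of the 42 collagen genes (36 windows). CTTTGA was in 9 of these 36 windows (25.0%), against 5257 of all 32851 windows (16%). It was in 2 of 12 windows of genes that separated higher and in 1 of 5 windows of genes that separated lower. GGGCGG was in 61.1% of collagen windows, against 35.7% of all, and CCAAT in 36.1%, against 37.4%. The letters of no motif contain those of another, and a match is a description of letters only.

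The multiplexins are basement membrane collagens with long interruptions in the triple helix. Col18a1, whose C-terminal fragment is endostatin, was at 0.73 and 0.14 with Wnt3A, against -0.14 and -0.38 in control. Its difference was 0.70 ± 0.24 (limma adjusted p = 0.638), and its 2 probe sets differed by 0.65 and 0.75. Col15a1 was at -0.00 and 0.00 with Wnt3A, against 0.08 and -0.10 in control, a difference of 0.01 ± 0.13.

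**Figure D2:**
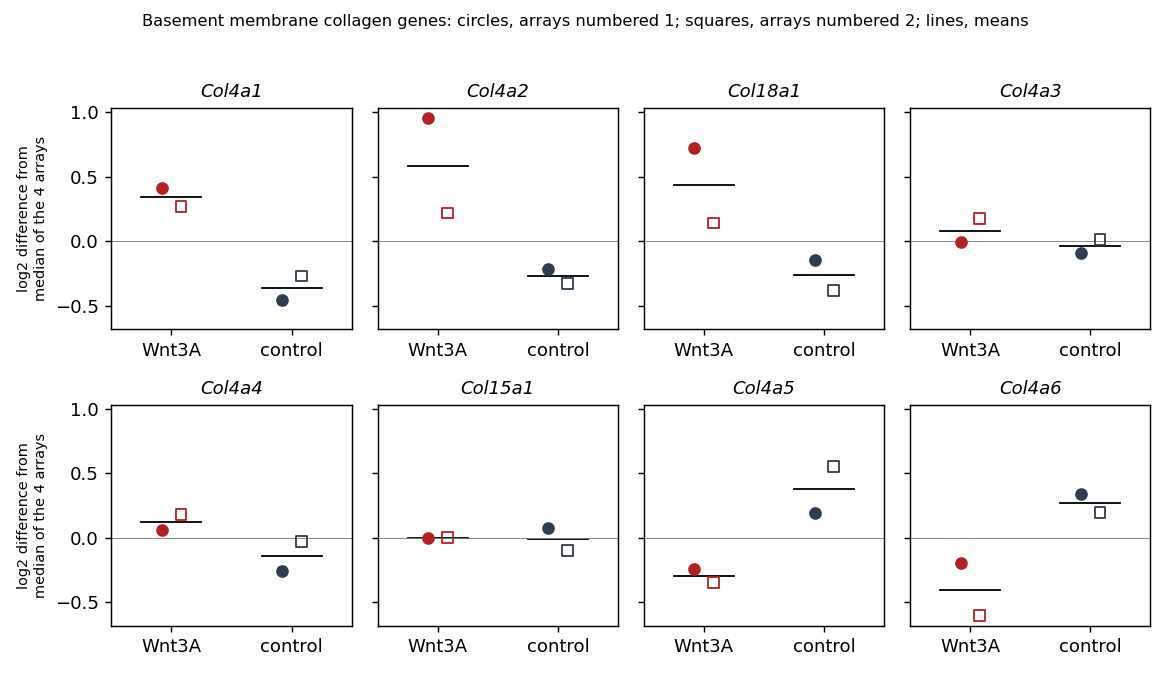
Values of the 8 basement membrane collagen genes by group, on a log2 scale relative to the median of the 4 arrays, Wnt3A left and control right; circles are arrays numbered 1, squares arrays numbered 2 and lines the means of 2 arrays. Both Wnt3A arrays lie above both controls for Col4a1, Col4a2, Col18a1 and Col4a4 and below both for Col4a5 and Col4a6.

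Col7a1 and Col17a1 encode the collagens that hold an epithelium to the tissue beneath it. Col7a1, the anchoring fibril collagen, was at 0.45 and 0.13 with Wnt3A, against -0.13 and -0.29 in control, a difference of 0.50 ± 0.16 (limma adjusted p = 0.616). Col17a1, the transmembrane collagen of hemidesmosomes, was at 0.32 and -0.24 with Wnt3A, against 0.12 and -0.12 in control. Its groups overlapped, with a difference of 0.04 ± 0.23. Col13a1, another transmembrane collagen, found at adhesion sites, was at -0.19 and -0.11 with Wnt3A, against 0.11 and 0.39 in control, a difference of -0.40 ± 0.15 (limma adjusted p = 0.662).

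Fibril-associated collagens, which sit on the surface of fibrils, included the member with the largest negative difference. Col14a1, which binds the surface of type 1 collagen fibrils, was at -0.75 in both Wnt3A arrays, against 0.86 and 0.85 in control. Its level with Wnt3A was 33.0% of control, a difference of -1.60 ± 0.11, with the smallest adjusted p of the family (limma adjusted p = 0.267). The groups were far apart beside a gap of at most 0.02 between arrays of a group, and leaving out any 1 array gave -1.59 to -1.61. That gap belongs to the mean of 3 probe sets, and single probe sets spread more. The first was at -0.91 and -1.08 with Wnt3A, against 1.07 and 0.91 in control, and the 3 differed by -1.99, -1.95 and -0.86.

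Type 9 collagen, a heterotrimer best known from cartilage fibrils, has 3 chain genes that did not share a pattern. Col9a3 was at -0.55 and -0.44 with Wnt3A, against 0.48 and 0.64 in control, a difference of -1.05 ± 0.13 (limma adjusted p = 0.302). Its 3 probe sets were each separated, at -1.64, -1.08 and -0.43, the last in the lowest level range. Col9a1 was at 0.06 and -1.35 with Wnt3A, against 0.41 and -0.05 in control, so that the groups overlapped and the difference of -0.83 ± 0.51 was set mostly by Wnt3A 2. It was -0.12 without that array and -1.53 without Wnt3A 1. Its probe sets differed by -1.55 and -0.10. Col9a2 differed by -0.06 ± 0.25, with overlapping groups.

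Col16a1 was at 0.02 and -0.54 with Wnt3A, against 0.62 and -0.02 in control, a difference of -0.56 ± 0.31 with overlapping groups. Col12a1, often found in dense connective tissue, was at 0.36 and -0.09 with Wnt3A, against -0.01 and -0.01 in control, a difference of 0.15 ± 0.19. The 4 remaining fibril-associated genes, Col19a1, Col20a1, Col22a1 and Col9a2, all differed by less than 0.1 log2 units.

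Type 6 collagen forms beaded filaments close to cells from chains encoded by Col6a1, Col6a2 and Col6a3. Col6a1 was at 1.33 and 0.09 with Wnt3A, against -0.17 and -0.09 in control, a difference of 0.84 ± 0.43. Col6a2 was at 0.81 and 0.05 with Wnt3A, against -0.05 and -0.32 in control, a difference of 0.62 ± 0.29. Col6a3 was at 1.23 and -0.48 with Wnt3A, against 0.39 and -0.39 in control, a difference of 0.37 ± 0.63. All 3 chains were highest in Wnt3A 1. Without that array the differences were 0.22 for Col6a1, 0.24 for Col6a2 and -0.48 for Col6a3. Itga3, Itgb4 and Mmp9, given with the receptors and proteases, were also highest in Wnt3A 1, and its part in the type 6 values was not tested. Col6a4 and Col6a5, further chains of type 6, differed by 0.11 and 0.01.

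Col8a1, a short-chain collagen of vessel walls and of the basement membrane of the cornea, had the largest positive difference. It was at 0.15 and 0.76 with Wnt3A, against -2.04 and -0.15 in control, a difference of 1.55 ± 0.67, 2.93-fold (limma adjusted p = 0.733). Control 1 stood far below the other 3 arrays, and the difference was 0.61 without control 1 and 2.49 without control 2. Its 3 probe sets differed by 0.50, 1.86 and 2.29. Col8a2, its partner chain, was at 0.29 and -0.44 with Wnt3A, against -0.29 and 0.78 in control, a difference of -0.32 ± 0.45, and Col10a1 differed by -0.09 ± 0.11.

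The major fibrillar collagens of stroma showed no separation between groups. Col1a1 was at 0.15 and -0.10 with Wnt3A, against -0.04 and 0.02 in control, a difference of 0.03 ± 0.14. Col1a2, its partner in type 1 collagen, was at -0.28 and 0.30 with Wnt3A, against -0.82 and 0.58 in control, a difference of 0.13 ± 0.52. The 2 controls were thus 1.40 log2 units apart for Col1a2, far more than the group difference. Col3a1, which co-assembles with type 1 fibrils in soft tissue, was at 0.37 and -0.29 with Wnt3A, against 0.20 and -0.28 in control, a difference of 0.08 ± 0.29.

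Type 5 collagen starts and limits the growth of type 1 fibrils. Col5a1 was at 0.26 and -0.12 with Wnt3A, against -0.04 and 0.19 in control, a difference of -0.01 ± 0.19. Col5a2 was at -0.08 and 0.08 with Wnt3A, against -0.89 and 0.43 in control, a difference of 0.23 ± 0.46. Its 2 probe sets disagreed in sign, at -0.26 and 0.71. Col5a3 was at 0.52 and -0.12 with Wnt3A, against 0.06 and -0.15 in control, a difference of 0.25 ± 0.25.

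Type 11 collagen, best known as the core of cartilage fibrils, included the fibrillar gene furthest from 0. Col11a1 was at -0.37 and -1.56 with Wnt3A, against 0.75 and 0.37 in control, a difference of -1.53 ± 0.43, or 34.7% of control (limma adjusted p = 0.589). Both probe sets were separated, at -1.70 and -1.36. Wnt3A 2 was the lowest array, and the difference was -0.94 without it and -2.12 without Wnt3A 1. Col11a2 was at 0.17 and -0.25 with Wnt3A, against 0.57 and -0.17 in control, a difference of -0.24 ± 0.30. Col2a1, the cartilage gene whose product joins type 11 trimers, was separated lower by 0.07 log2 units, less than its SE of 0.11.

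**Figure D3:**
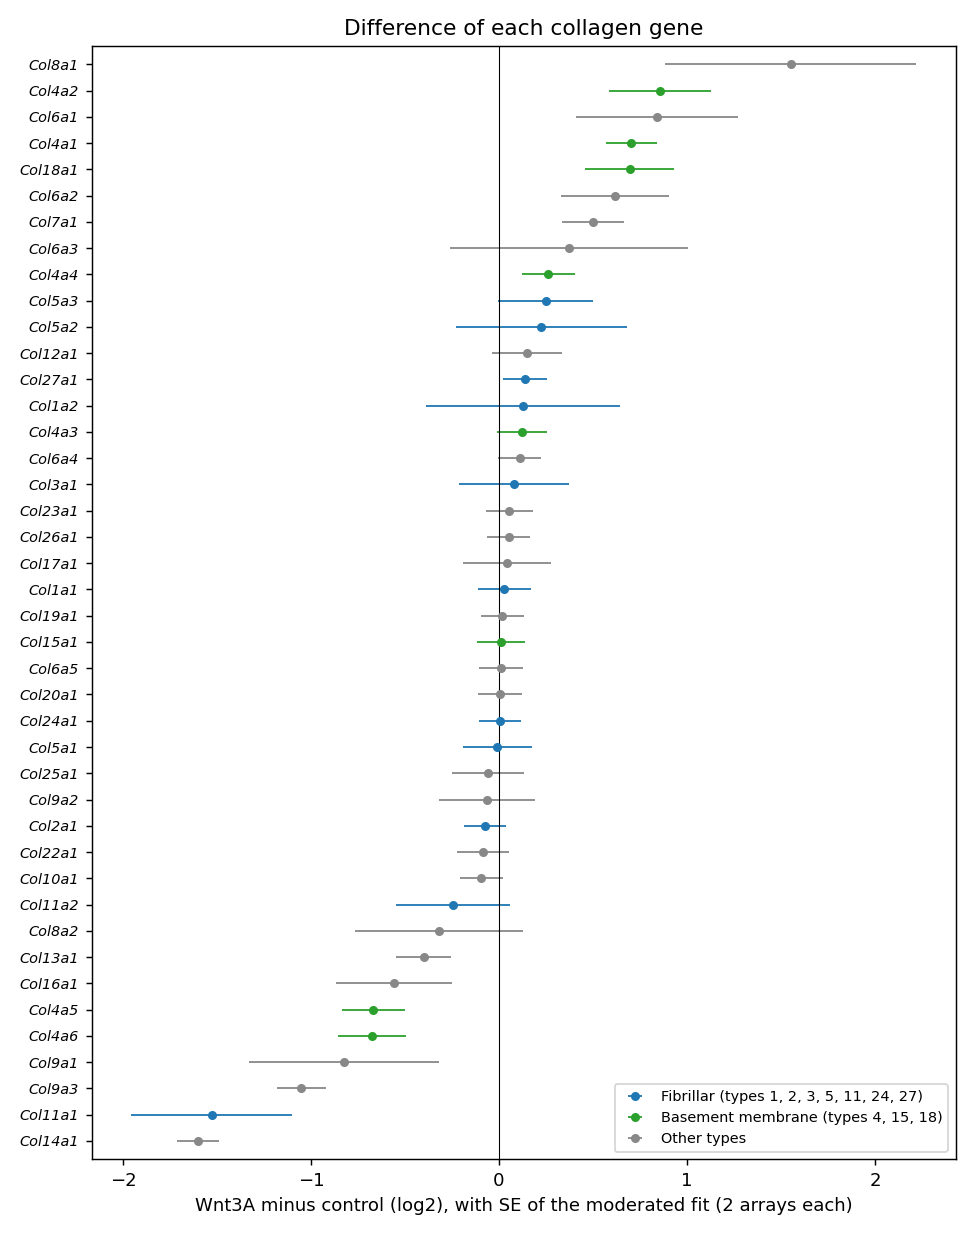
Difference of each of the 42 collagen genes, Wnt3A minus control in log2 units, with the standard error of the moderated limma fit on 2 arrays each, coloured by collagen group. Values run from -1.60 for Col14a1 to 1.55 for Col8a1, and most genes in the middle lie within 1 SE of 0.

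Arrays of one group differed for many members. Col8a1, Col1a2 and Col5a2 were lowest in control 1, at -2.04, -0.82 and -0.89. The contractile genes Cnn1 and Myh11 were also lowest there, at -2.75 and -1.67, as were fibronectin (Fn1, -1.98), thrombospondin 1 (Thbs1, -1.45) and the collagen crosslinking enzyme Lox (-1.48). The basal marker list, to which both contractile genes belong, had a median difference of 0.33, with 3 of 12 separated higher and 1 lower. Its largest difference ran the other way, in the oxytocin receptor gene Oxtr, at -0.58 and -0.87 with Wnt3A, against 0.67 and 0.64 in control. The 4 luminal markers with the largest absolute differences, Krt19, Kit, Foxa1 and Pgr, differed by -1.71, -0.74, -2.34 and -0.60. Of 11 luminal markers, 4 were separated lower and 0 higher with Wnt3A, while 3 had a difference above 0 and 8 below. The separated shares were 33.3% of the basal and 36.4% of the luminal list, close to the 34.6% of all genes. The luminal list's median was 0.02 and -0.17 in the Wnt3A arrays, against 0.02 and 0.10 in control. The fibroblast list's median was 0.07 and -0.03 with Wnt3A, against 0.02 and -0.04 in control, with 2 of 13 separated higher and 2 lower (30.8%). The largest fibroblast difference was -0.76 in Pdgfra, at -0.105 and -0.487 with Wnt3A, against 0.792 and 0.139 in control. Of the 13 fibroblast markers, 10 had a difference above 0 and 3 below, beside 9110 above and 9082 below over all genes. The fibroblast list's median absolute difference of 0.13 was smaller than its median SE of 0.16. Krt19 and Bgn, like Col11a1 and Col9a1, were lowest in Wnt3A 2, at -1.61 and -1.80. In such bulk RNA, fewer cells of a type and less RNA per cell cannot be told apart, and the part of these genes' cells in the collagen values was not tested.

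**Figure D4:**
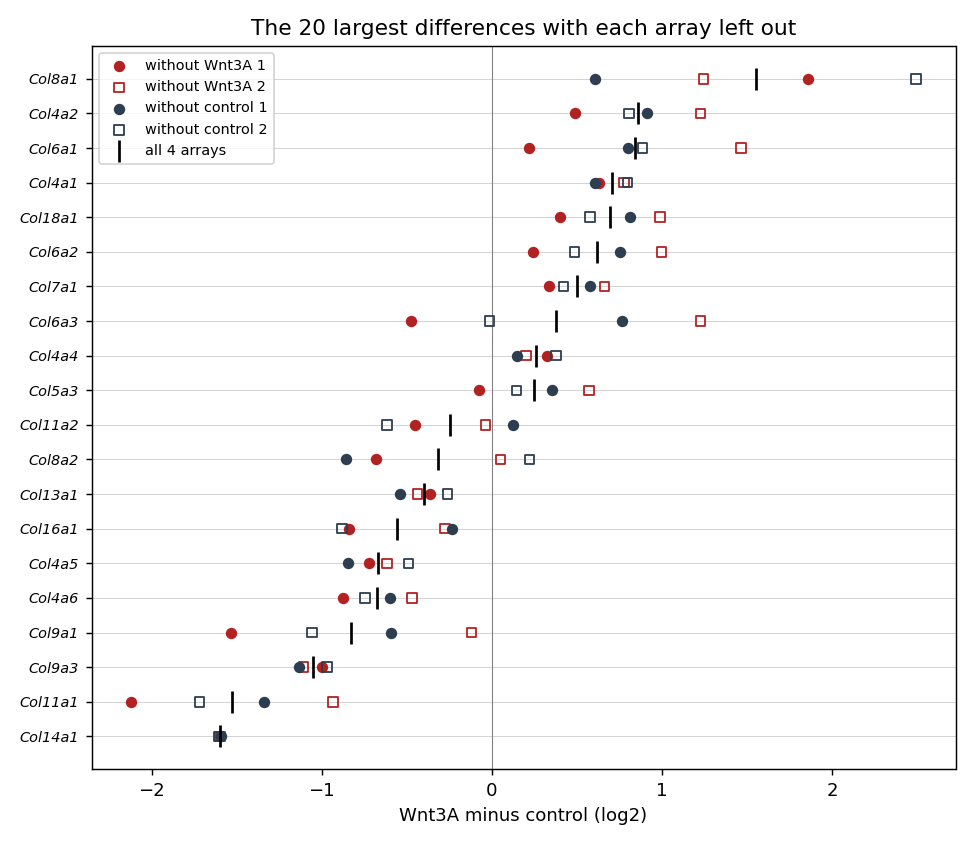
Wnt3A minus control (log2) for the 20 collagen genes with the largest absolute difference, over all 4 arrays (black bar) and with each array left out (red, a Wnt3A array left out; dark, a control left out; circles, number 1; squares, number 2). The marks lie close together for Col14a1, Col9a3 and Col4a1 and far apart for Col8a1, Col6a3, Col9a1 and Col11a1.

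The plot of differences with each array left out shows which values rest on 1 array. Of the 28 collagen genes whose values are given for every array, 16 kept their sign under every alternative tried. These include Col14a1, Col9a3, Col11a1, Col4a1, Col4a2, Col4a5, Col4a6, Col7a1 and Col18a1. The genes just named all had separated groups, and for such genes leaving out 1 array cannot change the sign. For the other 12 of the 28 genes, the sign changed under at least 1 alternative. Among them were the fibrillar genes Col1a1, Col1a2, Col3a1, Col5a1, Col5a2, Col5a3 and Col11a2.

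The remaining collagen genes showed small values. Col10a1, Col2a1, Col19a1, Col20a1, Col22a1, Col23a1, Col24a1, Col25a1, Col26a1, Col27a1, Col4a3, Col6a4, Col6a5 and Col9a2 all lay between -0.09 (Col10a1) and 0.14 (Col27a1). Col27a1, a fibrillar collagen, was separated higher by 0.14 ± 0.12, though its probe set in the highest level range differed by -0.00. Neighbouring collagen genes outside type 4 gave Col3a1 and Col5a2 at 0.08 and 0.23, Col6a2 and Col6a1 at 0.62 and 0.84, and Col9a1 and Col19a1 at -0.83 and 0.02.

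The list of genes that fold, modify or export collagen chains, which are not all enzymes, gave 0 of 20 measured genes called after adjustment. Without adjustment, limma gave 0 higher and 1 lower at p under 0.05 (5.0%, against 7.37% of all genes). The groups separated higher in 6 and lower in 4 (50.0%, against 34.6% of all genes), with a median difference of 0.05. P3h2, a prolyl 3-hydroxylase that acts on type 4 collagen, was at 0.57 and 0.00 with Wnt3A, against -0.00 and -1.25 in control, a difference of 0.92 ± 0.47 that was 0.29 without control 2. P3h4 differed by 0.56 ± 0.27 and P3h3 by -0.45 ± 0.15, both of which act with lysyl hydroxylation complexes, and the lysyl hydroxylase gene Plod1 by -0.62 ± 0.44, with -0.15 for Plod1 without Wnt3A 2.

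Genes of procollagen processing and crosslinking gave 0 of 12 called, with 0 separated higher and 2 lower (16.7%, against 34.6% of all genes) and a median of -0.07. Pxdn, the peroxidasin that crosslinks type 4 collagen, was at 0.90 and -0.02 with Wnt3A, against -0.93 and 0.02 in control. Its groups overlapped, with a difference of 0.90 ± 0.45 that was 0.42 without control 1 and 0.44 without Wnt3A 1. Lox, which encodes lysyl oxidase, was at -0.20 and 0.24 with Wnt3A, against -1.48 and 0.29 in control. Its difference of 0.61 ± 0.61 rested on control 1, being -0.27 without that array and 1.49 without control 2. Adamts3, a procollagen N-propeptidase, differed by -0.58 ± 0.15 (limma adjusted p = 0.55).

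Among collagen and basement membrane receptors, 0 of 12 were called, 4 separated higher and 0 lower, and the median was 0.08. The separated share of 33.3% was close to the 34.6% of all genes. Itga3, an integrin subunit that binds laminin, was at 0.89 and 0.19 with Wnt3A, against -0.19 and -0.36 in control, a difference of 0.82 ± 0.26 (limma adjusted p = 0.616). Itgb4 of hemidesmosomes differed by 0.64 ± 0.26, Itgb1, the CD29 sort marker and partner of all collagen-binding integrins, by 0.49 ± 0.19, and Itga2, which pairs with it to bind collagen, by 0.41 ± 0.17.

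Matrix proteins that bind collagens gave 0 of 19 called, 2 separated higher and 3 lower (26.3%, against 34.6% of all genes), with a median of 0.10. Prelp, a leucine-rich proteoglycan that binds collagen and basement membrane, was at -0.55 and -0.43 with Wnt3A, against 0.98 and 0.32 in control, a difference of -1.14 ± 0.25 (limma adjusted p = 0.492). Biglycan, Bgn, was at -0.18 and -1.80 with Wnt3A, against 0.18 and 1.46 in control, a difference of -1.81 ± 0.70 that was -0.998 without Wnt3A 2 and -2.62 without Wnt3A 1. Fn1 and Thbs1 differed in the other direction, by 1.38 ± 0.75 and 0.80 ± 0.57, with overlapping groups. Without control 1 these differences were 0.36 for Fn1 and 0.01 for Thbs1. Of 12 collagen-degrading protease genes, 0 were called, and 3 separated higher and 0 lower (25.0%, against 34.6% of all genes), with a median of 0.04. The gelatinase gene Mmp9 was at 2.08 and 0.10 with Wnt3A, against -1.03 and -0.10 in control, a difference of 1.65 ± 0.74. Mmp10, a stromelysin gene, differed by 0.98 ± 0.54. For both, Wnt3A 1 was the highest array, and without it the differences were 0.66 for Mmp9 and 0.19 for Mmp10. Mmp3, another stromelysin gene, was at 0.04 and -1.52 with Wnt3A, against -0.04 and 0.09 in control. Its difference of -0.76 ± 0.53 was 0.02 without Wnt3A 2.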

How the data were processed

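Expression was measured on Affymetrix Mouse Genome 430 2.0 arrays. The deposited log2 values came from RMA in the authors' hands, per the submitters' processing notes. Each of the 45101 rows had a median of 0 over the 4 samples, a centring that those notes do not mention. Differences between samples are unaffected by it. Of 45037 probe sets other than array controls, 34945 had 1 gene symbol, 932 several and 9160 none. Only the first were used, averaged to 18193 genes with no filter on low values.

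Level ranges were read from the binary spacing of the stored numbers, and can place probe sets too high or too low. Every array had to fit a range's spacing, so a single array below an edge could move a probe set down. The reading was checked on simulated data whose levels were kept clear of the edges, so that check does not cover such probe sets. A filter on the lowest range kept 16206 genes and 39 of 42 collagen genes. The Wnt3A and control groups were tested by limma 3.58.1 under R 4.3.3 (lmFit, eBayes, two-sided, Benjamini-Hochberg over all genes, threshold 0.05), with 2 residual and 2.53 prior degrees of freedom. The number of arrays limits the precision, with a median standard error of 0.15. An exact permutation test of 2 against 2 cannot go below p = 0.33. The fit was tested on simulated data.

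The collagen genes and gene lists were chosen with earlier results of these data known, so lists are described by counts and medians. Values in every array are given for the 20 largest absolute differences and for 13 collagens chosen by name, and list genes come from the 4 largest in each list. Figures used matplotlib 3.10.9.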

Additional observations from a re-analysis of the deposited data

How the results depend on the processing

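Limma gave 0 calls at an adjusted p under 0.05 in every alternative fit, and 0 in the reported fit with the threshold at 0.25 (1340 genes at an unadjusted p under 0.05). At 0.25 some alternatives did give genes: 392 with the replicate block, 33 with the highest level range, 21 with quantile normalization, 12 without control 1, 10 without Wnt3A 1 and 3 with each sample centred. Over 11 alternatives per gene, 288 of 308 values of the 28 collagen genes kept their sign and 20 did not. Many of these values could not have changed sign. The filter on the lowest range, the replicate block and a robust variance fit leave each gene's difference as it is. Leaving out 1 array cannot change the sign of a gene with separated groups. With the mean of each gene's highest level range, Col5a1 was 0.0703 and the basement membrane median 0.27, against 0.19 as reported. With each array left out in turn, that median ran from 0.12 to 0.27, the family's from -0.0636 to 0.0688, the fibrillar one from -0.0749 to 0.15 and that of other types from -0.13 to 0.0659. In the same fits the difference ran from -0.62 to 0.13 for Col11a2, -0.10 to 0.15 for Col1a1, -0.57 to 0.83 for Col1a2, -0.25 to 0.41 for Col3a1, -0.20 to 0.18 for Col5a1, -0.43 to 0.89 for Col5a2, -0.0749 to 0.57 for Col5a3, -0.48 to 1.23 for Col6a3, -0.86 to 0.22 for Col8a2, -0.0759 to 0.37 for Col12a1, -0.0788 to 0.10 for Col15a1 and -0.24 to 0.32 for Col17a1. The cause was not tested. The collagen genes with non-overlapping groups numbered 18 of 39 or 19 of 42 under the gene-level alternatives with all arrays (34.2% to 35.9% of all genes). With 3 arrays, where a lone sample overlaps less by construction, they numbered 28 to 34 of 42, against 66.2% to 67.9% of all genes, so the lowest (without Wnt3A 2) lies at the share of all genes. Testing each probe set gave 38 of 82, against 34.2% of all probe sets.

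The labels do not say that replicate numbers pair the samples. Deviations of same-numbered arrays correlated at 0.44 over all genes, as a description. With the replicate number as a block there were still 0 calls, with 2275 genes at an unadjusted p under 0.05 and 14 collagen genes, and a limma adjusted p of 0.194 for Col14a1 (0.194 to 0.767 over its alternatives). Quantile normalization and centring of each sample moved the median of all genes by 0.0008 each. Signal over background could not be read from centred values.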
